A study of Mus musculus with 10 samples.

Results

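The uncoupling proteins of mouse heart muscle cells were followed at the transcript level in 3 genes, Ucp1, Ucp2 and Ucp3, taken by name from the 25239 gene symbols of the deposited tables. All 3 symbols were present in each of the 10 libraries. The study compared cardiomyocytes of the atrium with cardiomyocytes of the ventricle from wild-type (WT) mice by RNA sequencing of total RNA, with 5 libraries for each chamber, and its stated aim was to set the expression profiles of both cell types side by side. The labels give no age, sex, strain, treatment or isolation method, and nothing in them ties a library to an animal, so the p-values here reflect spread among libraries that may be technical in part. Values are normalized reads, that is, reads of a gene divided by a size factor of the library.

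Uncoupling proteins are carriers of the inner mitochondrial membrane and belong to the Slc25 family. Ucp1 is the proton channel of brown and beige fat, where it lets the proton gradient run down as heat. Ucp2 is found in many tissues and abundantly in immune cells, and it has been linked to metabolite export from mitochondria and to the control of reactive oxygen species. Ucp3 is mostly a transcript of skeletal muscle, brown fat and heart, and is induced when fatty acids are the main fuel, in part through PPAR nuclear receptors.

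Ucp3 (ENSMUSG00000032942) and Ucp2 (ENSMUSG00000033685) lie next to each other on mouse chromosome 7 in the GRCm38 build and are read in the same direction. In GENCODE M21, Ucp3 spans 100472990 to 100486432 and Ucp2 spans 100493337 to 100502020, both on the plus strand, with 6905 bases between the end of Ucp3 and the start of Ucp2. Ucp1 (ENSMUSG00000031710) lies alone on chromosome 8, 83290352 to 83298452, plus strand. The positions are those of whole protein-coding genes, introns included. The annotated transcripts of the 3 genes share 0 stretches of 31 bases with one another, so reads of that length from 1 gene have no exact match in another of them. The last bases of Ucp2 overlap the end of Dnajb13, which is read from the other strand, and whether the counting used strand is not stated in the labels.

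The 250 bases before the RefSeq starts of Ucp2 and Ucp3 are shown because these neighbours had opposite chamber differences in the libraries. Both run 5′ to 3′ on the plus strand (RefSeq, GRCm38.p6), and capitals mark each match to AGGTCA, the core letters bound by many nuclear receptors. The windows are chr7:100493108-100493357 for Ucp2, whose end overlaps the GENCODE gene, and chr7:100472741-100472990 for Ucp3.
Ucp2: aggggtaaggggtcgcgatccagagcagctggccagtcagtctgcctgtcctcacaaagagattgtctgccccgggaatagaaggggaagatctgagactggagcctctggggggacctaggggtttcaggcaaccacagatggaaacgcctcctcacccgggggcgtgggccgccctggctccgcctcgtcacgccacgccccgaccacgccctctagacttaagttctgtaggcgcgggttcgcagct
Ucp3: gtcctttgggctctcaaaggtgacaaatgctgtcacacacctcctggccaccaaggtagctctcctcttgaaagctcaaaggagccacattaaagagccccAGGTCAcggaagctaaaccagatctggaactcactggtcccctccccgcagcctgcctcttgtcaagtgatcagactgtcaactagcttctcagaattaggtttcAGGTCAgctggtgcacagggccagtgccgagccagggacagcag
The same window of Ucp1, not shown, held 1 match to AGGTCA. Ucp3 held 2 matches to AGGTCA and Ucp2 held 0, searched on both strands, where 14% of 32851 RefSeq promoter windows of this length held at least 1. The extended core AAGGTCA, which contains AGGTCA, matched neither window (4.08% of all windows). Neither held an exact copy of the direct repeat of AGGTCA spaced by 1 base, the DR1 form bound by PPAR with RXR (0.0335%). Only exact letters were searched, so this cannot show whether an inexact DR1 element is present. The E-box letters CANNTG matched 3 times in Ucp3, once overlapping an AGGTCA match, and 2 times in Ucp2 (66.2% of all windows held 1 or more). The GC box GGGCGG matched 1 time in Ucp2 and 0 times in Ucp3 (32.7%). CCAAT (33.8%) and TATAAA (12.4%) matched neither. The Ucp2 window had 63.6% G or C and 16 CpG dinucleotides, and the Ucp3 window 54.8% and 3, against medians of 52.4% and 6 over all windows. These matches are letters in a window and were not measured as sites of binding.

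The libraries held 1790402 to 12842635 recovered reads, and they fell into sets that the labels do not name. Replicates 1 and 2 of both chambers had 1790402 to 4445287 reads, with 0.215% to 0.480% of them on the ribosomal precursor Rn45s. Replicates 3 to 5 of both chambers had 11163805 to 12842635 reads, with 23.1% to 29.8% on Rn45s. Ucp2 and Ucp3 followed this division within each chamber, so each value is given by library. All 12 cardiomyocyte markers on a fixed list had reads in both chambers. All 7 atrial markers were higher in atrial and all 6 ventricular markers higher in ventricular libraries (limma, adjusted p under 0.05), where 14.7% of 12422 genes tested were called in either direction, 8.12% toward atrial and 6.56% toward ventricular cells. Atrial markers summed to 10670 to 28184 normalized reads in ventricular replicates 1 and 2 and 2934 to 3286 in replicates 3 to 5. In atrial libraries they summed to 366288 to 444859 and 129586 to 144361. Ventricular markers summed to 512 to 569 in atrial replicates 1 and 2 and 1731 to 1781 in replicates 3 to 5. In ventricular libraries they summed to 145308 to 162082 and 115785 to 127726. The part of RNA from the other chamber was not tested. In bulk samples such as these, fewer cells of a type and less RNA per cell cannot be told apart.

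Ucp1 transcripts were at or near 0 in both chambers. Atrial replicate 1 held 2 reads of Ucp1 (2.76 normalized reads), and the other 4 atrial and all 5 ventricular libraries held 0. A library with 0 reads allows up to 3, between 1.70 and 10.4 normalized reads according to library depth, counting error only. The 2 reads stood among 84942829 recovered reads in all, and Ucp1 was below the filter of the test, a mean of 10 normalized reads. Atrial replicate 1 was also the library with reads on the most genes, 21576 against 15950 to 19232 in the others.

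Several genes that are known in brown fat beside Ucp1 had reads in cardiomyocytes all the same. Of 14 markers of thermogenic and white fat cells, 7 passed the filter, 4 were higher in ventricular cells (6.56% of all genes), 0 were higher in atrial cells and 3 were not called. With the replicate block 6 of the 7 were called toward ventricular cells (16% of all genes). Cidea, a lipid droplet protein of brown fat, had 63.7 ± 8.89 normalized reads in atrial and 184 ± 49.7 in ventricular libraries (SD, n = 5), 2.89-fold higher in the latter (-1.48 ± 0.21 on the log2 scale, limma, adjusted p = 0.000866). Dio2, the deiodinase that activates thyroid hormone, was 3.90-fold and Cox8b, a cytochrome oxidase subunit of muscle and brown fat, 1.45-fold higher in ventricular cells. The fourth called marker, Prdm16, is also on the ventricular list. The defining fat cell genes Adipoq and Plin1 had 2 and 5 reads in atrial replicate 1, the library that also held the reads of Ucp1, and 0 in the other 4 atrial libraries. In ventricular libraries Adipoq was at 0 throughout and Plin1 had 1 read in replicate 4. The summed level of the 14 markers was 1727 to 2037 in atrial and 2537 to 2620 in ventricular libraries, without overlap. Much of this sum was Ppargc1a, at 1153 ± 186 in atrial and 1136 ± 192 in ventricular libraries (SD, n = 5). Prdm16 added 152 to 216 in ventricular and 0 to 20.7 in atrial libraries.

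Ucp2 was the most abundant of the 3 transcripts and had its higher value in the atrial library of every same-numbered pair. Atrial replicates 1 to 5 held 692, 1059, 2154, 2032 and 2018 normalized reads of Ucp2. Ventricular replicates 1 to 5 held 121, 280, 1035, 1028 and 995. Replicates 3 to 5 were high and replicates 1 and 2 low in both chambers, and the chambers overlapped because atrial replicate 1 lay below ventricular replicates 3 to 5. The means were 1591 ± 668 in atrial and 692 ± 452 in ventricular libraries (SD, n = 5), a ratio of 2.30.

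The log2 difference of Ucp2, atrial minus ventricular, was 1.50 ± 0.62 (SE) and did not pass the test over all 10 libraries (limma, adjusted p = 0.149). With the replicate number as a block the same difference passed (limma, adjusted p = 0.00431), where 32.3% of genes were called, 16.3% toward atrial cells. With library set as a term it passed as well (adjusted p = 0.00192; 31.8% of genes called, 16% toward atrial and 15.8% toward ventricular cells). Over all 22 alternatives the adjusted p ran from 8.24e-15 to 0.274, and the difference was positive in each. The atrial value was the higher by 5.72-fold, 3.78-fold, 2.08-fold, 1.98-fold and 2.03-fold in pairs 1 to 5. Such agreement in all 5 pairs toward atrial cells was seen for 20.2% of genes tested.

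Within the library sets the chamber ratio of Ucp2 was larger where its level was low. In replicates 3 to 5 the atrial mean was 2068 ± 74.8 and the ventricular mean 1019 ± 21.3 (SD, n = 3), 2.03-fold, and the log2 difference was 1.02 ± 0.05 (limma on these 6 libraries, adjusted p = 8.24e-15; 53.3% of genes called, 26.3% toward atrial cells). In replicates 1 and 2 the means were 876 and 201 (n = 2), 4.36-fold, and the log2 difference was 2.21 ± 0.42 (limma, adjusted p = 0.0364; 5.23% of genes called, 3.1% toward atrial cells). The difference between these effects was 1.19 ± 0.40 and did not pass the test without a block (limma, adjusted p = 0.130; 5.21% of genes called), but did with the block (adjusted p = 0.00441; 10.2% called) and without ventricular replicate 2 (1.79, adjusted p = 0.00156). Over 15 alternatives its adjusted p ran from 0.00156 to 0.245. From replicates 1 and 2 to replicates 3 to 5, Ucp2 was 2.36-fold higher in atrial and 5.08-fold higher in ventricular libraries.

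Markers of leukocytes, which are known to be rich in Ucp2, had low levels in these libraries. Of 18 leukocyte and macrophage markers, 5 passed the filter and 1 was called toward atrial cells (8.12% of all genes; 2 with the replicate block, 16.3%), Csf1r, a receptor of macrophages, with 57.4 ± 9.04 normalized reads in atrial and 15.2 ± 3.27 in ventricular libraries (1.86 ± 0.20 on the log2 scale, limma, adjusted p = 0.000153). The summed level of all 18 was 107 to 617 in atrial and 31.6 to 287 normalized reads in ventricular libraries. In replicates 3 to 5, where Ucp2 was at its highest, the sum was 107 to 131 against 31.6 to 48.8. In replicates 1 and 2, where Ucp2 was lower, the sum was higher, at 617 and 166 in atrial and 287 and 134 in ventricular libraries. The leukocyte genes C1qa and Tyrobp averaged under 1 normalized read in both chambers, and C1qc was at 0 in all ventricular libraries. The part of these cells in the level of Ucp2 was not tested.

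Ucp3 was higher in ventricular cells. Atrial replicates 1 to 5 held 5.52, 8.64, 11.9, 15.3 and 16.1 normalized reads of Ucp3, from 4, 6, 21, 26 and 25 reads. Ventricular replicates 1 to 5 held 17.3, 63.4, 229, 217 and 217, from 5, 26, 370, 324 and 352 reads. The chambers did not overlap, though ventricular replicate 1, with 5 reads, lay close above the highest atrial library. Groups without overlap were seen for 14.4% of genes tested, 6.55% with the ventricular group higher.

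The means of Ucp3 were 11.5 ± 4.47 normalized reads in atrial and 149 ± 100 in ventricular libraries (SD, n = 5), 12.9-fold. The log2 difference of -3.16 ± 0.67 passed the test (limma, adjusted p = 0.00896). The ventricular value was the higher by 3.14-fold, 7.34-fold, 19.2-fold, 14.1-fold and 13.5-fold in pairs 1 to 5, and 20.7% of genes tested had all 5 pairs in that direction. In replicates 3 to 5 the means were 14.4 ± 2.22 and 221 ± 7.11 (SD, n = 3), 15.3-fold, and the log2 difference was -3.86 ± 0.13 (limma, adjusted p = 6.35e-19; 27% of genes called toward ventricular cells). In replicates 1 and 2 they were 7.08 and 40.3 (n = 2), 5.70-fold, and the log2 difference of -2.11 ± 0.86 did not pass (limma, adjusted p = 0.234; 2.12% of genes called toward ventricular cells). Replicates 1 and 2 were the only alternative of 22 that lost the call, and the adjusted p over the 22 ran from 6.35e-19 to 0.234.

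The chamber difference of Ucp3 was estimated as smaller in replicates 1 and 2, where the gene had 4 and 6 reads in atrial and 5 and 26 in ventricular libraries. The difference between the effects was 1.74 ± 0.61 on the log2 scale and did not pass (limma, adjusted p = 0.140). It passed with the replicate block (adjusted p = 0.0347) and without ventricular replicate 2 (2.65, adjusted p = 0.00176), and the adjusted p over 15 alternatives ran from 0.00176 to 0.320. From replicates 1 and 2 to replicates 3 to 5, Ucp3 was 2.04-fold higher in atrial and 5.48-fold higher in ventricular libraries. Both uncoupling protein genes therefore had their lowest values in replicates 1 and 2 and the wider gap between sets in ventricular cells.

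**Figure D1:**
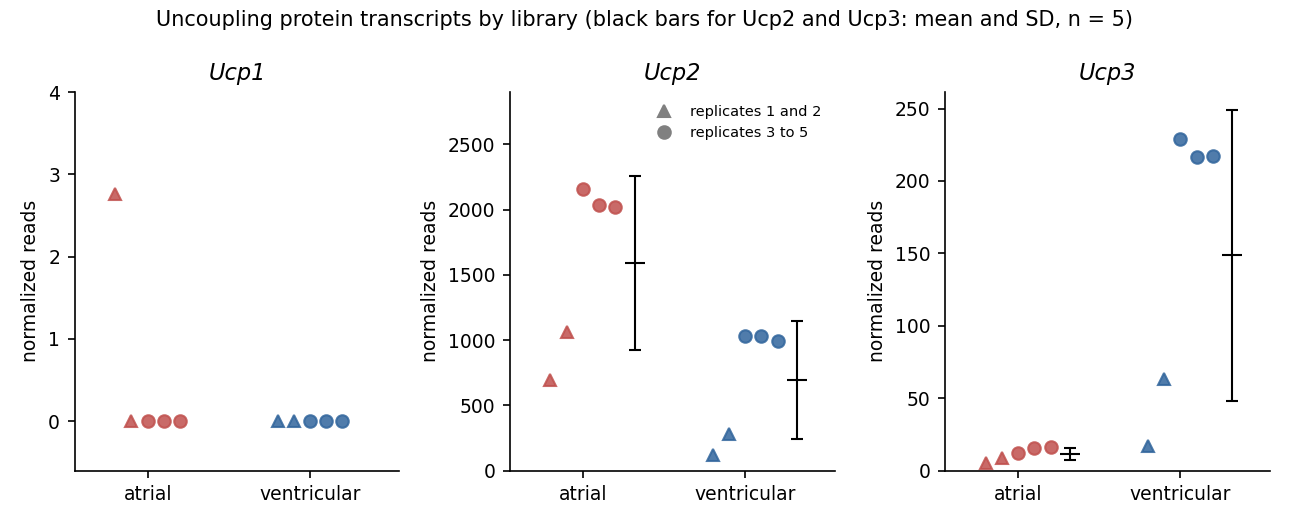
Normalized reads of Ucp1, Ucp2 and Ucp3 (vertical axes, linear) in each atrial (red) and ventricular (blue) library, with triangles for replicates 1 and 2, circles for replicates 3 to 5, and black bars for the mean and SD of 5 libraries. Ucp1 is at 0 in 9 of 10 libraries, Ucp2 is higher in the atrial library of each pair but overlaps between chambers, and Ucp3 does not overlap.

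The summed level of fibroblast markers differed between the library sets, though its members did not all move alike. The sum of 10 fibroblast markers was 21471 and 28860 in atrial replicates 1 and 2 and 34573 to 36633 in atrial replicates 3 to 5. In ventricular libraries it was 9269 and 20255 in replicates 1 and 2 and 49175 to 64198 in replicates 3 to 5. In atrial libraries the matrix gene Postn went the other way, at 7467 and 6924 normalized reads in replicates 1 and 2 and 3415 to 3557 in replicates 3 to 5, and so did the receptor gene Pdgfra, at 303 and 223 against 151 to 153. Of the 10 markers, 2 were higher in ventricular cells (6.56% of all genes; limma, adjusted p under 0.05), Pdgfra and Lum, 0 were higher in atrial cells and 8 were not called. Calls toward ventricular cells numbered 3 with the replicate block (16% of all genes), 4 without replicate 1 of both chambers (8.18%) and 9 in replicates 3 to 5 alone (27%). In replicates 3 to 5 the sum was larger in the ventricular libraries, where Ucp3 was higher and Ucp2 lower. The part of fibroblast RNA in the levels of Ucp2 and Ucp3 was not tested.

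Set against each other within a library, the neighbours separated the chambers in both library sets. Ucp3 amounted to 0.797%, 0.815%, 0.554%, 0.754% and 0.797% of the normalized reads of Ucp2 in atrial replicates 1 to 5. It amounted to 14.3%, 22.6%, 22.2%, 21.1% and 21.8% in ventricular replicates 1 to 5. The groups lay far apart, and the atrial values of replicates 1 and 2 lay beside those of replicates 4 and 5. These percentages do not depend on how libraries are scaled, because both genes are read in the same library.

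The log2 ratio of Ucp3 to Ucp2, with 1 normalized read added to each, averaged -6.95 ± 0.26 in atrial and -2.29 ± 0.25 in ventricular libraries (SD, n = 5). The difference of -4.65 had an exact two-sided permutation p of 0.00794, the smallest that 5 libraries against 5 can give. With labels permuted within the replicate numbers the exact permutation p was 0.0625, the smallest that 32 labelings can give, and the ratio was lower in atrial cells in 5 of 5 pairs. The difference was -4.32 in replicates 1 and 2 alone and -4.87 in replicates 3 to 5 alone, where the exact permutation tests cannot go below 0.333 and 0.100.

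**Figure D2:**
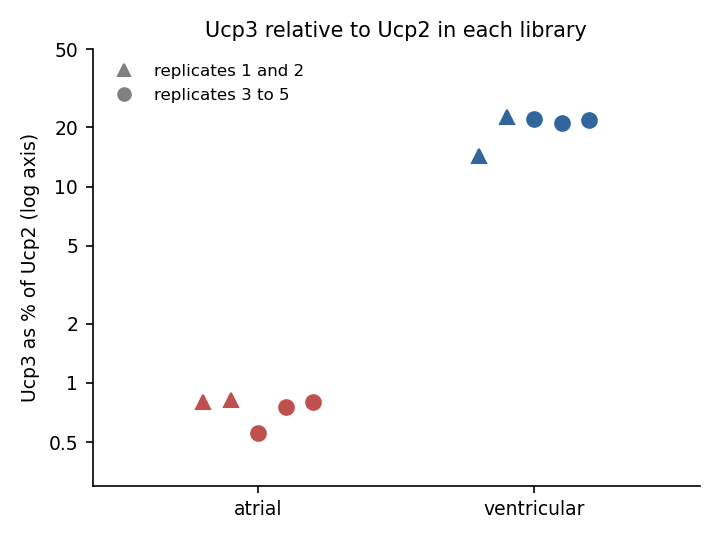
Ucp3 as a percentage of Ucp2 in each library (vertical axis, log scale), with atrial libraries in red, ventricular libraries in blue, triangles for replicates 1 and 2 and circles for replicates 3 to 5. The 5 atrial libraries lie between 0.554% and 0.815% and the 5 ventricular libraries between 14.3% and 22.6%.

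Of the other genes around Ucp2 and Ucp3, the 3 that were tested were not called. Within 100 kb of Ucp2 lie C2cd3, a protein of the centriole, Dnajb13, a chaperone of cilia, Coa4, an assembly factor of cytochrome oxidase, and Mrpl48, a mitochondrial ribosomal protein. C2cd3, which ends 2838 bases before Ucp3, differed by 0.31 ± 0.29 on the log2 scale (limma, adjusted p = 0.589). Coa4 had a log2 difference of -0.25 ± 0.25 and Mrpl48 of -0.41 ± 0.21 (limma, adjusted p = 0.641 and 0.266; 0.00569 with the block for Mrpl48). Dnajb13, which overlaps Ucp2, was below the filter, with 8.90 ± 4.49 normalized reads in atrial and 3.11 ± 2.06 in ventricular libraries, a ratio of 2.86, against 1591 and 692 for Ucp2. Near Ucp1 the order was different, since Tbc1d9, 17418 bases before it, was 2.96-fold higher in atrial cells (1.54 ± 0.22 on the log2 scale, limma, adjusted p = 0.000740). Elmod2, on its other side, had a log2 difference of -0.14 ± 0.18 (adjusted p = 0.740), and Mgat4d and Clgn were below the filter.

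**Figure D3:**
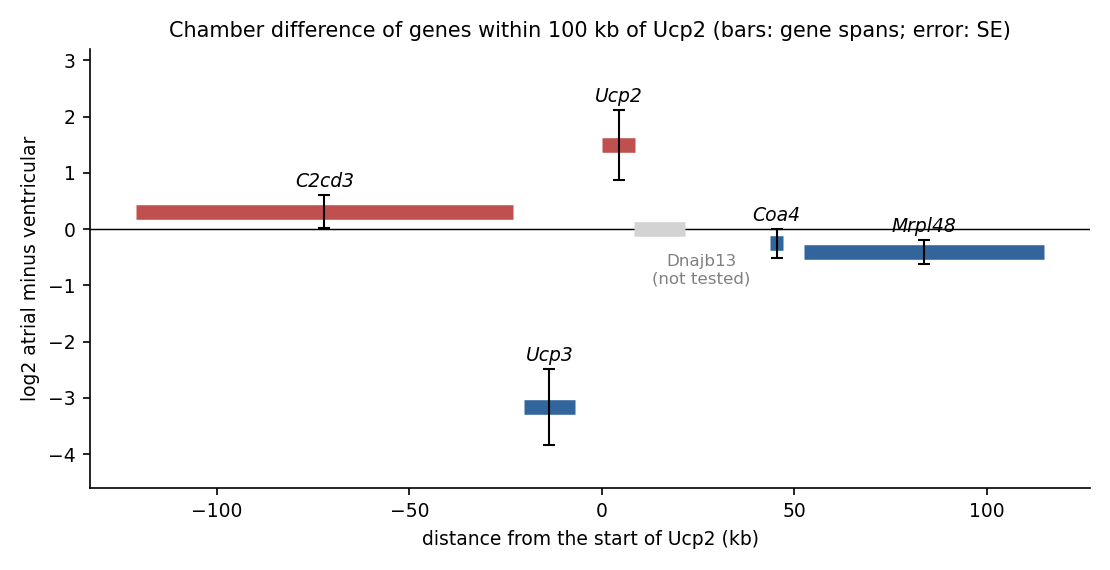
Log2 difference, atrial minus ventricular, of the genes within 100 kb of Ucp2 (vertical axis) against distance from the start of Ucp2 in kb (horizontal axis), with bars for gene spans and whiskers for the SE. Ucp2 at 1.50 and Ucp3 at -3.16 lie on opposite sides of 0 while C2cd3, Coa4 and Mrpl48 lie within 0.41 of it, and Dnajb13 was not tested.

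Levels of different genes were compared per kb of transcript, taken as the median length of the transcripts that GENCODE pairs with a RefSeq record, 3988 bases for Ucp2 and 2448 for Ucp3. Ucp2 stood at 399 ± 167 normalized reads per kb in atrial and 174 ± 113 in ventricular cells (SD, n = 5). Ucp3 stood at 4.70 ± 1.83 per kb in atrial and 60.8 ± 41.0 in ventricular cells. Ucp2 was thus the higher of the pair in both chambers, also per kb of all annotated exons (228 against 3.67 in atrial and 99.0 against 47.5 in ventricular cells). In ventricular cells the SDs of Ucp2 and Ucp3 reach across the gap between their means per kb, and Ucp2 was nevertheless the higher in normalized reads in 5 of 5 ventricular libraries.

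Among 14 genes, the uncoupling proteins with 11 related carriers, Ucp2 ranked at position 4 in atrial and 7 in ventricular cells per kb. In replicates 3 to 5 alone its position was 4 in atrial and 5 in ventricular cells, where its mean of 256 per kb lay above those of Slc25a13 (246) and Slc25a12 (160). The adenine nucleotide translocase Slc25a4, which exchanges ADP for ATP and also conducts protons, ranked first in both, at 11274 ± 3858 and 17871 ± 5269 normalized reads per kb. Ucp3 ranked at position 12 in atrial and 8 in ventricular cells, also in replicates 3 to 5 alone. Over all 5 ventricular libraries it lay just below Ucp2 and above Slc25a10 (45.2 ± 8.27 per kb). In ventricular replicates 3 to 5 it had 90.3 per kb, with Slc25a13 and Slc25a12 between it and Ucp2. Over all 5 ventricular libraries the SD of Ucp3 covered the level of Slc25a10, and that of Ucp2 covered Slc25a12 (180 ± 29.0 per kb) and Slc25a13 (229 ± 36.9 per kb). Slc25a27 and Slc25a14, also known as UCP4 and BMCP1, had 15.3 ± 5.37 and 20.1 ± 5.56 normalized reads per kb in atrial and 12.3 ± 5.95 and 15.5 ± 8.40 in ventricular cells.

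**Figure D4:**
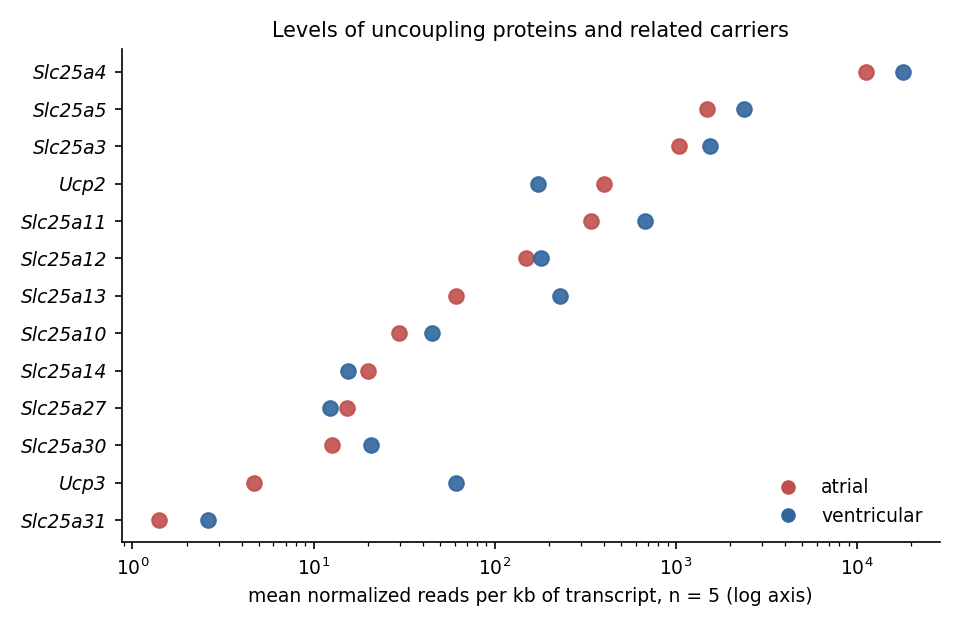
Mean normalized reads per kb of transcript (horizontal axis, log scale, n = 5 libraries) of Ucp2, Ucp3 and 11 related mitochondrial carriers in atrial (red) and ventricular (blue) cells. Ucp2 moves from 399 to 174 per kb and Ucp3 from 4.70 to 60.8 per kb between atrial and ventricular cells, and Ucp1, at 0 in 9 of 10 libraries, is left out.

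Of the 11 related carriers, 10 were tested, 3 were higher in ventricular cells, 0 were higher in atrial cells and 7 were not called, beside 6.56% of all genes called toward ventricular cells. Their median log2 difference was -0.63, against -0.01 over all genes tested. With the replicate block 8 of 10 were called toward ventricular cells (16% of all genes). Without ventricular replicate 1 the calls numbered 5, beside 887 of 12332 genes called toward ventricular cells. Slc25a13, the calcium-regulated carrier of aspartate and glutamate named citrin, had 191 ± 25.4 normalized reads in atrial and 715 ± 115 in ventricular libraries, 3.75-fold (-1.90 ± 0.14 on the log2 scale, limma, adjusted p = 1.19e-05). The oxoglutarate carrier Slc25a11 was 1.99-fold and the translocase Slc25a5 1.59-fold higher in ventricular cells. Among carriers not called without the block, Slc25a4 had a log2 difference of -0.68, the phosphate carrier Slc25a3 of -0.55 and the second aspartate-glutamate carrier Slc25a12 of -0.28 (limma, adjusted p = 0.120, 0.124 and 0.253; 0.000120, 0.000268 and 0.0124 with the block). The positive estimates among the 10 belonged to Slc25a14 (0.48 ± 0.36) and Slc25a27 (0.37 ± 0.34). These were not called (limma, adjusted p = 0.488 and 0.591, or 0.177 and 0.245 with the block). In replicates 3 to 5 alone both were called toward atrial cells, as were 26.3% of all genes. In that setting 8 of the 10 carriers were called toward ventricular cells (27% of all genes). Ucp2 thus had its estimate on the atrial side, where 2 of the 10 carriers lay.

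Fatty acid genes that respond to PPAR receptors had the direction of Ucp3. Of 32 on the list, 31 were tested, 20 were higher in ventricular cells (6.56% of all genes), 0 were higher in atrial cells and 11 were not called. All 31 estimates were negative, with a median log2 difference of -0.89, and 28 were called with the replicate block (16% of all genes). In replicates 1 and 2 alone 13 of the 31 were called (2.12% of all genes). Plin5, which ties lipid droplets to mitochondria, had 22.4 ± 2.95 normalized reads in atrial and 167 ± 36.1 in ventricular libraries (SD, n = 5), 7.45-fold (-2.82 ± 0.19 on the log2 scale, limma, adjusted p = 3.98e-06), and Acot1, a cytosolic acyl-CoA thioesterase, 2.48-fold (-1.34 ± 0.36, adjusted p = 0.0288). Fabp3, Eci1 and Acadvl, which carry or break down fatty acids, had log2 differences of -2.12, -1.68 and -1.24. The most abundant members not called without the block were the dehydrogenase Acadl, the lipase Lpl and the thiolase Acaa2, at -0.57, -0.72 and -0.24 (limma, adjusted p = 0.538, 0.241 and 0.255; 0.000226, 0.000108 and 0.0337 with the block).

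Of 25 PPAR, PGC-1 and ERR regulators, which control mitochondrial and fatty acid genes, 24 were tested, 3 were higher in ventricular cells (6.56% of all genes), 0 were higher in atrial cells and 21 were not called. The median log2 difference was -0.23. With the block 9 were called toward ventricular (16%) and 1 toward atrial cells (16.3%), and without replicate 1 of both chambers, a setting added on sight of the values, 5 were called toward ventricular cells (8.18% of all genes). The called genes were Perm1, a muscle partner of PGC-1 (-2.45 ± 0.17), the coactivator Ppargc1b (-1.07 ± 0.15) and the receptor Rxra, the partner of PPAR on DNA (-0.68 ± 0.17). Of the PPAR genes themselves, Ppara had a log2 difference of -0.68 ± 0.30 and Ppard of -0.08 ± 0.66. Neither was called without the block (limma, adjusted p = 0.174 and 0.966). With the block the adjusted p were 0.000962 and 0.782 (limma). Pparg was below the filter. The most abundant members not called were the corepressor Ncor1, the AMP-activated kinase subunit Prkaa2 and the coactivator Ppargc1a, with log2 differences of 0.10, -0.28 and 0.02 (limma, adjusted p = 0.809, 0.269 and 0.962).

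Of 12 genes that remove reactive oxygen species in or near mitochondria, all tested, 4 were higher in ventricular cells (6.56% of all genes), 0 were higher in atrial cells and 8 were not called. The median log2 difference was -0.48, with 10 negative and 2 positive estimates. With the block 9 were called, all toward ventricular cells (16% of all genes). The positive estimates belonged to the peroxidase Gpx1 (0.14 ± 0.15), which was higher in the atrial library of 5 of 5 pairs, and the glutathione reductase Gsr (0.06 ± 0.19), and neither was called (limma, adjusted p = 0.665 and 0.918; 0.128 and 0.656 with the block). Sod2, the superoxide dismutase of the matrix, was 1.79-fold, Nnt, the transhydrogenase that supplies NADPH, 1.77-fold, and the peroxidase Gpx4 and the reductase Txnrd2 both 1.61-fold higher in ventricular cells (limma, adjusted p = 0.0105, 0.000456, 0.00857 and 0.00816). Idh2, Prdx5 and Prdx3, the most abundant members not called, had log2 differences of -0.58, -0.36 and -0.48 (adjusted p = 0.275, 0.522 and 0.0645; 0.000647, 0.00572 and 0.000820 with the block).

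**Figure D5:**
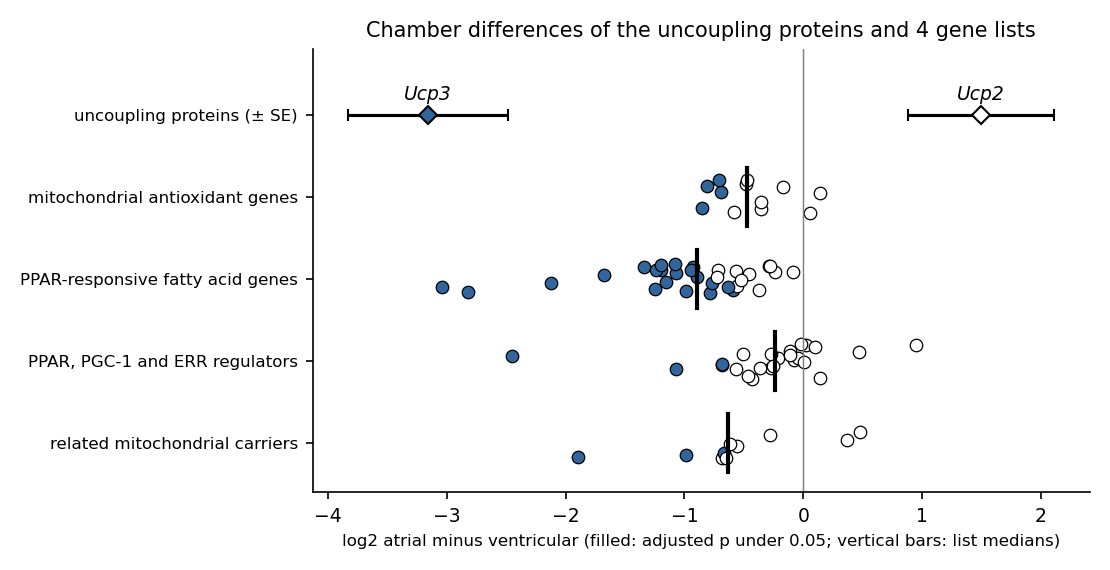
Log2 difference, atrial minus ventricular (horizontal axis), of the tested members of 4 gene lists and of Ucp2 and Ucp3 (rows), with filled points for adjusted p under 0.05 (limma), open points for genes not called, vertical bars for list medians and whiskers for the SE of Ucp2 and Ucp3. Ucp3 at -3.16 lies on the side of all 31 tested fatty acid genes and Ucp2 at 1.50 on the other side of 0.

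The genes whose pattern over the libraries was most like each member were listed by Pearson's r over the 10 libraries, among 12007 named genes. The libraries share their set and chamber, so these r describe a common pattern and carry no test. Among the 5 closest to Ucp3 were the homeobox gene Prrx1 (r = 0.989), the muscle gene Ky (0.984), the dienoyl-CoA reductase Decr1 (0.982) and Mcur1, a regulator of mitochondrial calcium uptake (0.979). Within replicates 3 to 5 the r of these 4 to Ucp3 were 0.979 to 0.996 over 6 libraries. Decr1 was also on the fatty acid list. Closest to Ucp2 were Aebp1 (r = 0.993), the matrix proteoglycan Fmod (0.992), Macrod2 (0.991), the phosphatase Dusp7 (0.990) and the cadherin Cdh11 (0.989), with r of 0.958 to 0.992 within replicates 3 to 5. Like Ucp2, none of these 5 was called without the block, with log2 differences of 0.57 to 2.30, and Aebp1, for example, was at 1.81 ± 0.79 (limma, adjusted p = 0.170; 0.0107 with the block).

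Other cell types on the fixed lists were present to different degrees. Of 12 endothelial markers, 3 passed the test on the atrial side (8.12% of all genes) and 0 on the ventricular side, with sums of 1360 to 5316 normalized reads in atrial and 370 to 1948 in ventricular libraries. With the replicate block, calls were 6 atrial (16.3% of all genes) and 0 ventricular (16%). In replicates 3 to 5 alone they were 5 atrial (26.3% of all genes) and 3 ventricular (27%). Of 6 tested skeletal muscle markers, 3 passed on the atrial (8.12% of all genes) and 1 on the ventricular side (6.56%). With the block these were 4 (16.3%) and 1 (16%). Their sums overlapped, at 10561 to 13650 in atrial and 13604 to 18156 in ventricular libraries, and some of these genes are also made in heart muscle. Of the 12 cardiomyocyte markers, 3 were called toward ventricular (6.56% of all genes) and 0 toward atrial cells (8.12%). With the block these were 6 (16%) and 1 (16.3%). The part of the other cell types in the levels of Ucp2 and Ucp3 was not tested.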

How the data were processed

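RNA of 5 atrial and 5 ventricular cardiomyocyte libraries was sequenced. Per the labels' protocols, Trizol-extracted RNA was made into ScriptSeq v2 libraries. Trimmomatic, HISAT2 and featureCounts were used on GRCm38 (mm10), per the submitters' processing notes. For these steps no version, annotation or strand is given in the sources used here. Each deposited value is a signal, namely the reads of a gene over the DESeq2 size factor that the authors gave its library, per the file headers. Division by the smallest value of each library gave whole reads for 100% of values within 0.01, and edgeR on these reads called 1995 genes.

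The 12422 genes whose mean reached 10 normalized reads were tested with limma 3.58.1 (R 4.3.3, trend and robust variance, two-sided) on log2(normalized reads + 1), Benjamini-Hochberg adjusted over all of them at 0.05. Log2 differences are on that scale, which understates changes of low genes, and folds are ratios of group means. Deviations from chamber means had r of 0.556 to 0.637 within each of the 5 same-numbered pairs. Replicate numbers served as the block of an alternative fit, and its results stand beside calls that they alter. With the library sets removed, r was -0.0394 to 0.0678 for replicates 3 to 5. It was 0.405 for replicates 1 and 2, a single value because 2 libraries deviate equally from their mean. These r do not show that libraries of the same number in replicates 3 to 5 are pairs, and the labels name no pairs. Library sets were read from Rn45s (under or over 5% of reads). Alternatives used edgeR 4.0.16, DESeq2 1.42.0, other pseudocounts, filters, scalings and subsets of libraries.

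The members and 12 gene lists were chosen with earlier results of these data known. Named genes were the members, up to 6 called and 3 uncalled genes of each of 4 lists, genes within 100 kb, and the 5 most similar genes. A gene that this rule names is not reported here. Markers and genes outside this rule were chosen after their values were seen. Chi-square per degree of freedom between libraries of 1 chamber was 2.21 to 11.8 within replicates 3 to 5, above sampling noise. Between replicates 1 and 2 it was 25.2 in atrial and 8.06 in ventricular libraries, and between the library sets 140 to 238. The p-values of replicates 3 to 5 alone rest on spread within that set only. Intervals and limits cover counting error only.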

Additional observations from a re-analysis of the deposited data

Results flagged for a closer look

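The ratio of Ucp3 to Ucp2 in ventricular replicate 1 lay apart from the other 4 ventricular libraries, at -2.74 on the log2 scale. It rested on 5 reads of Ucp3 and 35 of Ucp2, and Ucp3 made up 12.5% of both (95% exact Clopper-Pearson interval 4.19% to 26.8%), against 17.4% to 18.4% in the other ventricular libraries. Of 16 groups of 5 libraries checked in this way, this was the 1 that stood out, where chance flags about 1 in 20.

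Of 49 printed genes checked, 3 had a chamber effect that differed between replicates 1 and 2 and replicates 3 to 5 by the interaction test of limma, a share close to the 5.21% of all genes. Cidea had -0.85 and -1.89, which differ by 1.04 (adjusted p = 0.0378). The fibroblast genes Pdgfra, at -0.82 and -2.81, and Lum, at -0.58 and -2.69, differ by 1.99 and 2.11 (adjusted p = 0.00363 and 0.0129). In all 3 the ventricular excess was the larger in replicates 3 to 5.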

How the results depend on the processing

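All differences of Ucp2 were positive and all of Ucp3 and of their ratio negative under the alternatives run, and no result reversed. Counts of all genes called were 1824 over all libraries (14.7% of genes tested) and 1369 to 1948 with 1 library left out. They were 4017 with the replicate block (32.3%), 3955 with library set as a term (31.8%) and 2575 of 12422 with DESeq2. In replicates 1 and 2 alone they were 672 (5.23%), in replicates 3 to 5 alone 6453 (53.3%), and without replicate 1 of both chambers 2122 of 12187. Ucp2 (1.50) passed with the replicate block (1.50) and the set term (1.50), and in replicates 1 and 2 (2.21) and 3 to 5 (1.02), and ran from 0.98 without ventricular replicate 1 to 1.76 with 1 library left out, never passing. Ucp3 did not pass in replicates 1 and 2 alone (-2.11), and ran from -3.79 to -2.88 with 1 library left out, always passing. The effect differences between sets passed with the replicate block (1.19 for Ucp2, 1.74 for Ucp3) and ran from 0.59 to 1.79 and 0.83 to 2.65 with 1 library left out, lowest without ventricular replicate 1 and highest without ventricular replicate 2, the 1 omission that made them pass. The ratio difference, -4.65, missed 0.05 with labels permuted within the replicate block (-4.65) and within replicates 1 and 2 (-4.32) and 3 to 5 (-4.87), where no smaller p is possible, and ran from -4.77 to -4.55 with 1 library left out. Calls among the 10 tested carriers were 5 with DESeq2, 8 with the replicate block (32.3% of all genes), 8 with the set term (31.8%) and 10 in replicates 3 to 5 (53.3%). With 1 library left out they were 3 to 5. Among the 24 tested regulators they were 5 with DESeq2, 10 with the block (32.3%), 10 with the set term (31.8%) and 12 in replicates 3 to 5 (53.3%). Without replicate 1 of both chambers they were 5, and with 1 library left out 3 to 4. The 31 tested fatty acid genes gave 13 calls in replicates 1 and 2 (5.23% of all genes) and 17 to 21 with 1 left out. The 12 antioxidant genes gave 9 with the block (32.3%), 9 with the set term (31.8%), 9 in replicates 3 to 5 (53.3%) and 4 to 5 with 1 left out. The cause of these changes was not tested, and the subsets also hold fewer libraries. Depth limits Ucp3 in atrial libraries and in ventricular replicates 1 and 2, at 4 to 26 reads, and Ucp1 throughout, whose log2 difference without a filter on low values was 0.38 (limma, adjusted p = 0.771).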
